A study of Homo sapiens with 10 samples.

Results

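The genes described here were 8 genes of cholesterol synthesis and its control, HMGCS1, IDI1, FDFT1, SQLE, LSS, DHCR7, INSIG1 and SREBF2. They were listed by symbol, a rule that uses no measured value, but the list was chosen with earlier results of these data known. Each symbol was matched to 1 of the 58037 Ensembl gene identifiers in the deposited tables. All 8 passed the filter on low counts, as did 16406 genes in all. None of the 8 encodes a receptor or carrier for cholesterol uptake, so uptake genes are given only as a separate list. The study set A549, a human lung adenocarcinoma line, against A549/DDP, a subline of A549 labelled as resistant to DDP (cisplatin, a platinum drug that damages DNA). Each line had 2 input libraries, which are sequenced poly(A) RNA, and 2 m6A-seq libraries, in which RNA fragments were pulled down with an antibody against N6-methyladenosine (m6A), a common methyl mark of mRNA. Both lines were grown in RPMI 1640 with fetal bovine serum and antibiotics, for at most 10 passages, and no library was labelled as exposed to cisplatin at harvest. The A549/DDP cells came as a gift from another laboratory and the A549 cells were bought, so that resistance and the separate histories of the lines cannot be told apart. Nothing says that the 2 libraries of a line came from separate cultures, so p-values measure only the spread between libraries, which may be technical.

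Cholesterol is built from acetyl-CoA by way of the mevalonate pathway, which makes isoprenoid units. A sterol branch joins these to squalene, closes squalene to lanosterol and trims lanosterol to cholesterol. When sterols are low in the membrane of the endoplasmic reticulum, the SREBP transcription factors travel to the Golgi, are cut there, and switch on the genes of this pathway. When sterols are high, INSIG proteins hold the SREBP escort SCAP in the endoplasmic reticulum. Serum in the medium brings lipoprotein cholesterol to cultured cells.

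The 4 inputs held 29225501 to 35286514 expected counts, with 0.04% to 0.05% on mitochondrial genes. 2 further A549 inputs, of an experiment that their labels leave unnamed, held 855034 and 982036 counts, of which 75.2% and 73.9% were mitochondrial, and were used only in alternative settings, as the second A549 pair. As a check on the labels, the summed TPM of 5 epithelial markers was 3684 and 7921 in A549 and 14740 in both A549/DDP libraries, most of it KRT8 and KRT18. Of the others, CDH1 was at 28.9 and 40.4 TPM in A549 and 226.2 and 114.3 TPM in A549/DDP. KRT19 was at 33.3 and 64.0 TPM in A549 and 9.24 and 0 TPM in A549/DDP. EPCAM was low in both lines, at 2.45 and 6.95 TPM in A549 and 4.54 and 5.35 TPM in A549/DDP. Lung lineage markers were nearly absent, at 0 to 1.51 summed TPM in A549 and 2.16 to 4.49 in A549/DDP. PTPRC and CD3E, which define leukocytes, did not reach 1 TPM, while CD68 was at 128.2 to 155.7 TPM over both lines, and the endothelial markers stayed at or below 0.40 in sum. Fibroblast markers summed to 5.13 to 9.08 TPM in A549 and 2.31 to 16.7 in A549/DDP, and 2 hepatocyte markers to 12 to 30.2 and 0.86 to 168.5. The part of these differences in the results below was not tested.

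Promoter sequences from RefSeq (GRCh38.p14, 250 bases before to 50 bases after each annotated start) were found for 6 of the 8 genes, and SQLE and FDFT1 had no entry. The letters TCACNCCAC, a form of the sterol element that SREBPs bind, were searched on both strands. They occurred in 1.13% of 35116 promoters and, among the genes described here, only in that of SREBF2. The letters CCAAT, searched on both strands and chosen after the data were seen, are those bound by NF-Y, a partner of SREBPs. They occurred in 34.6% of all promoter entries. Among the 6 genes they were in 1 of 2 entries of HMGCS1 and of DHCR7 and in 2 of 3 of IDI1. INSIG1, LSS and SREBF2 had 1 entry each, which held them. The windows of 30 bases shown are the sterol element of SREBF2, at chr22:41832962-41832991 on the + strand, and 1 CCAAT box for each of the 3 genes with an entry that rose in A549/DDP, at chr7:155297696-155297725 on the + strand, chr10:1049001-1049030 on the − strand and chr11:71448470-71448499 on the − strand. Each is written 5′ to 3′ on the strand of its gene, with the matched letters in capitals, and ATTGG is CCAAT read on the other strand.
SREBF2: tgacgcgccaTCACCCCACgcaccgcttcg
INSIG1: cgccggcctcccATTGGttgcggccgcctc
IDI1: cgcgtacgggcgCCAATtggccgggcgatg
DHCR7: caggctcctcgaCCAATcacggggcgcgga
In the windows shown the matched letters of SREBF2, INSIG1, IDI1 and DHCR7 begin at −133, −170, −132 and −94 from the start of their promoter entry. A match is a description of the letters and does not show binding.

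Levels are given in CPM, counts scaled to library size by TMM, and differences as log2 fold changes of A549/DDP over A549. The first comparison asked how the level of each gene differed between cisplatin-resistant and parental cells. INSIG1, DHCR7, FDFT1 and IDI1 rose in A549/DDP, by 3.64-fold, 3.47-fold, 2.70-fold and 2.49-fold. SQLE and LSS were higher in both A549/DDP libraries than in either A549 library, at 1.59-fold and 2.10-fold, without passing the threshold of an adjusted p under 0.05. HMGCS1, the first enzyme of the set, went the other way, at 1.65-fold lower in A549/DDP, also without passing. SREBF2, the gene of the transcription factor SREBP2, differed by 1.08-fold, and its libraries overlapped. In RNA of whole cultures, fewer cells that express a gene and less of its RNA per cell cannot be told apart. So 4 of the 8 genes were called higher and 0 lower with edgeR's quasi-likelihood test, where 14.9% of all genes tested were called, 6.85% as higher and 8.0% as lower. The levels of 6 genes were higher in both A549/DDP libraries than in both A549 libraries, which held for 29.7% of all genes tested, and 1 was lower in both, which held for 32.7%. Without adjustment for the number of genes, the p-values by edgeR were 0.0135 for SQLE, 0.025 for LSS and 0.00901 for HMGCS1. DESeq2 called 5 of the 8 genes higher and 1 lower, where it called 2059 higher and 2270 lower of 17047 genes.

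**Figure D1:**
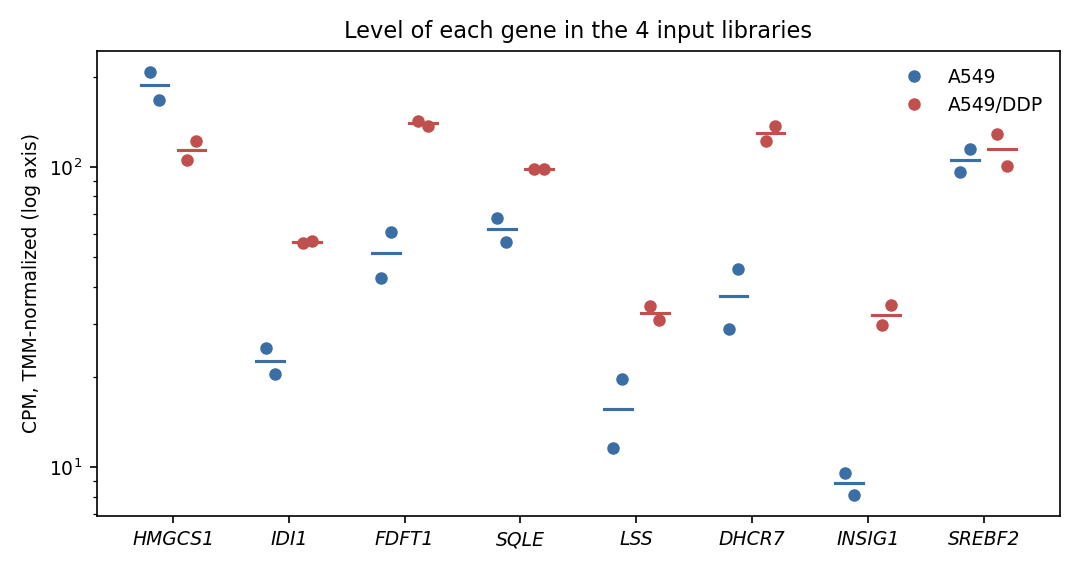
Level of each gene in CPM (counts scaled to library size by TMM, log axis) in the 2 A549 inputs (blue) and the 2 A549/DDP inputs (red); points are libraries and bars are means. The 2 groups are apart for every gene but SREBF2, and HMGCS1 alone is higher in A549.

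HMGCS1, the synthase that makes HMG-CoA at the entry of the mevalonate pathway, lies on chr5:43287470-43313412 (GRCh38.p14). Its level was 207 and 168 CPM in A549 and 105 and 122 CPM in A549/DDP. The A549 libraries were both higher and the lines did not overlap. The log2 fold change was −0.72 ± 0.19 (SE) with an adjusted p of 0.0556 by edgeR. It was negative in all 14 alternative settings and passed the threshold in 10 of them, with adjusted p from 0.000161 to 0.253 and log2 fold changes from −1.61 to −0.58.

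IDI1 encodes the isomerase that interconverts the 5-carbon isoprenoid units. It was at 25.0 and 20.4 CPM in A549 and at 55.9 and 56.8 CPM in A549/DDP, where the libraries nearly coincided. The log2 fold change of IDI1 was 1.31 ± 0.24 (SE), with an adjusted p of 0.0207 by edgeR. The gene lies on chr10:1039152-1056704 and overlaps IDI2-AS1 and WDR37, and whether the counting used strand is not given in the sources used here.

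FDFT1, squalene synthase, joins 2 farnesyl units and commits them to sterols. Its level was 42.8 and 60.6 CPM in A549 and 142.6 and 137.0 CPM in A549/DDP. Both A549/DDP libraries stood above both A549 libraries, at a log2 fold change of 1.43 ± 0.23 (SE) and an adjusted p of 0.0134 by edgeR. FDFT1 passed in 12 of the 14 alternative settings, the most among the 8 genes. Of the other called genes, INSIG1 and DHCR7 passed in 10, as many as HMGCS1, which was not called, and IDI1 in 9.

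SQLE, squalene epoxidase, carries out the first oxygen-dependent step of the pathway. It was at 67.9 and 56.2 CPM in A549 and 98.2 and 98.8 CPM in A549/DDP, with a log2 fold change of 0.67 ± 0.19 (SE) and an adjusted p of 0.0708 by edgeR. LSS, lanosterol synthase, closes the epoxide to the first ring sterol. It was at 11.6 and 19.7 CPM in A549 and 34.5 and 31.0 CPM in A549/DDP, with a log2 fold change of 1.07 ± 0.36 (SE) and an adjusted p of 0.102 by edgeR. The A549 libraries of LSS lay further apart as a ratio than those of SQLE, and the SE of LSS was the larger. SQLE passed in 4 and LSS in 2 of the 14 settings, always as higher in A549/DDP.

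DHCR7, the reductase of 7-dehydrocholesterol, carries out a last step to cholesterol. Its level was 28.8 and 45.8 CPM in A549 and 122.2 and 136.5 CPM in A549/DDP. The lowest A549/DDP library was far above the highest A549 library, with a log2 fold change of 1.79 ± 0.27 (SE) and an adjusted p of 0.0114 by edgeR. This change depended on the scale, as given with transcript lengths.

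INSIG1, a membrane protein of the endoplasmic reticulum that retains SCAP and so the SREBPs, was among the lowest of the 8 genes. It was at 9.58 and 8.13 CPM in A549 and at 29.7 and 34.7 CPM in A549/DDP, with 288 to 315 and 881 to 1209 expected counts behind these values. The rise of INSIG1 was the largest of the 8 in the count-based fit, at a log2 fold change of 1.86 ± 0.33 (SE) and an adjusted p of 0.0180 by edgeR.

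SREBF2 was at 96.2 and 114.7 CPM in A549 and at 128.4 and 100.4 CPM in A549/DDP. The libraries of the lines interleaved, and the log2 fold change was 0.12 ± 0.21 (SE) with an adjusted p of 0.771 by edgeR. Its expected counts were fractional in all 4 inputs, as RSEM gives where reads are divided between genes, and those of HMGCS1 and IDI1 in 3 and 1 inputs. The gene also overlaps SREBF2-AS1 and MIR33A.

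The calls for INSIG1, IDI1, FDFT1 and DHCR7 stayed under the threshold when any 1 of the 4 inputs was left out, with an adjusted p of 0.0499 for IDI1 without A549/DDP replicate 1. Such a fit sets 1 library against 2, takes the spread from the other line's pair and assumes that the lone library varies alike, so it says little of stability. In the same fits HMGCS1 passed as lower without A549 replicate 1 (adjusted p = 0.0312) or A549 replicate 2 (adjusted p = 0.00029), but not without A549/DDP replicate 1 (adjusted p = 0.253) or 2 (adjusted p = 0.146). SQLE passed as higher without A549 replicate 1 alone (adjusted p = 0.019) and LSS without A549 replicate 2 alone (adjusted p = 0.0229). The 4 calls were lost when both pairs of A549 inputs entered, with adjusted p of 0.0589 for INSIG1, FDFT1 and DHCR7 and 0.172 for IDI1. The log2 fold changes in that fit were 1.73, 1.71, 2.07 and 1.02, in the same order. On log2(TPM + 1) with limma FDFT1 alone of the 4 kept its call (adjusted p = 0.0471), while HMGCS1 was called lower there (adjusted p = 0.0255). Where the second A549 pair replaced the first, the 8 genes rested on 0 to 46 counts a library in A549, and the calls of INSIG1 (adjusted p = 0.208) and IDI1 (adjusted p = 0.394) were lost. In that fit HMGCS1 was called lower and SREBF2, at a log2 fold change of 1.78, higher (adjusted p = 0.00864).

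**Figure D2:**
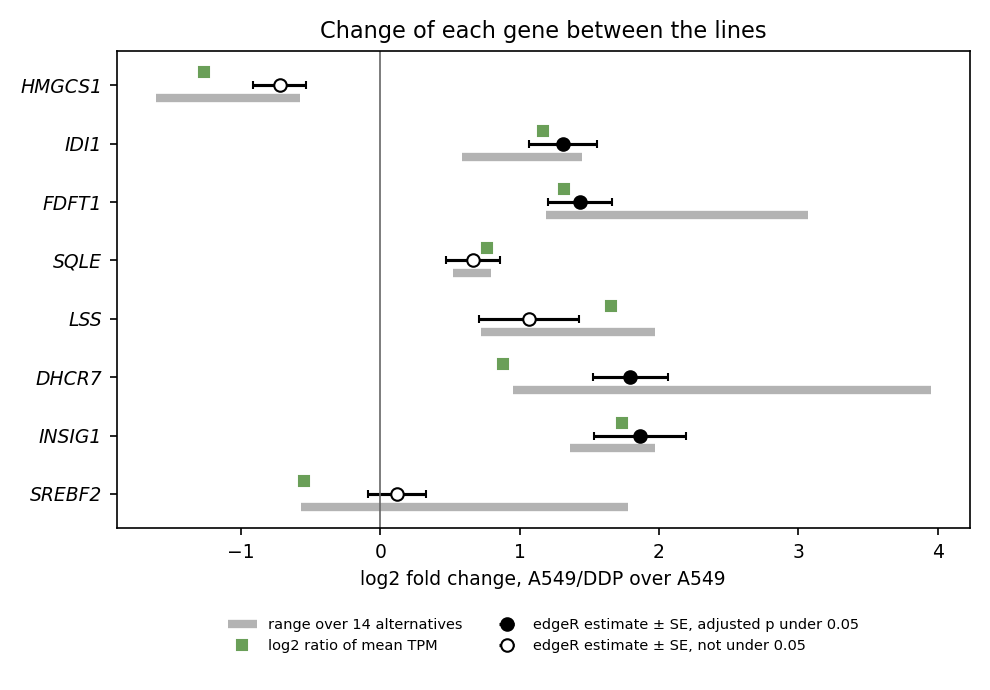
log2 fold change of each gene, A549/DDP over A549: circles are edgeR estimates with their SE (filled where the adjusted p is under 0.05), squares the log2 ratio of mean TPM, and grey bars the range over the 14 alternative settings. The bar of SREBF2 crosses 0, from −0.57 to 1.78, and the square of DHCR7 lies at 0.88, below its circle at 1.79.

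Levels of different genes can be compared per length only, in TPM, which is scaled for transcript length and library size. In A549 HMGCS1 was the highest, at 144.3 and 141.8 TPM, followed by SREBF2 at 62.9 and 76.0 TPM. DHCR7 followed at 36.4 and 82.2 TPM and FDFT1 at 43.3 and 74.0 TPM, and SREBF2, DHCR7 and FDFT1 could not be ordered beyond the spread of their libraries. SQLE was at 35.8 and 40.0 TPM and IDI1 at 21.1 and 17.1 TPM. INSIG1, at 7.0 and 9.25 TPM, and LSS, at 4.31 and 10.4 TPM, were the lowest and overlapped.

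In A549/DDP the order was different, with FDFT1 first at 159.5 and 132.8 TPM. DHCR7 came next, at 86.1 and 132.6 TPM, nearly level with FDFT1 in replicate 2. SQLE, at 57.8 and 71.2 TPM, and HMGCS1, at 59.3 and 59.9 TPM, overlapped. SREBF2, at 56.4 and 38.6 TPM, overlapped with IDI1, at 42.9 and 42.8 TPM. INSIG1, at 22.1 and 32 TPM, and LSS, at 30.4 and 16 TPM, were again the lowest. HMGCS1 thus went from the first to the fourth place of mean TPM, and FDFT1 from the fourth to the first. The fourth place of FDFT1 in A549, and that of HMGCS1 in A549/DDP, lay within the spread of the libraries.

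The deposited tables also give for each gene a transcript length, the mean over its isoforms weighted by their estimated share, so that a shift in this length is a shift in the estimated isoform mix. With 2 libraries a line no exact permutation test can give a two-sided p below 0.333, and the lengths are given as values. In A549/DDP the weighted length was greater in both libraries than in both A549 libraries for 4 of the 8 genes, HMGCS1, IDI1, DHCR7 and SREBF2, which held for 15.5% of all genes tested and for 20.0% of the 9827 genes with a mean of at least 10 CPM. The median log2 ratio over all genes tested was 0.

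SREBF2 shifted from 2323 and 2615 bases in A549 to 3626 and 4169 bases in A549/DDP, 1.58 times longer. HMGCS1 shifted from 2187 and 2075 bases to 2851 and 3291 bases, 1.44 times longer. DHCR7, the shortest in A549 at 1253 and 1044 bases, reached 2305 and 1726 bases in A549/DDP, 1.75 times longer. In each of these 3 genes both A549/DDP libraries lay above both A549 libraries. A ratio of at least 1.4, a limit chosen after these values were seen, was found for 5.84% of the genes with at least 10 CPM.

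IDI1 was at 1819 and 2098 bases in A549 and at 2126 and 2188 bases in A549/DDP, so that its lines were only just apart. LSS went the other way, from 4003 and 3253 bases in A549 to 1869 and 3146 bases in A549/DDP, but its A549/DDP libraries differed widely. SQLE, INSIG1 and FDFT1 overlapped between the lines, with ratios of 0.95, 1.09 and 1.07.

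**Figure D3:**
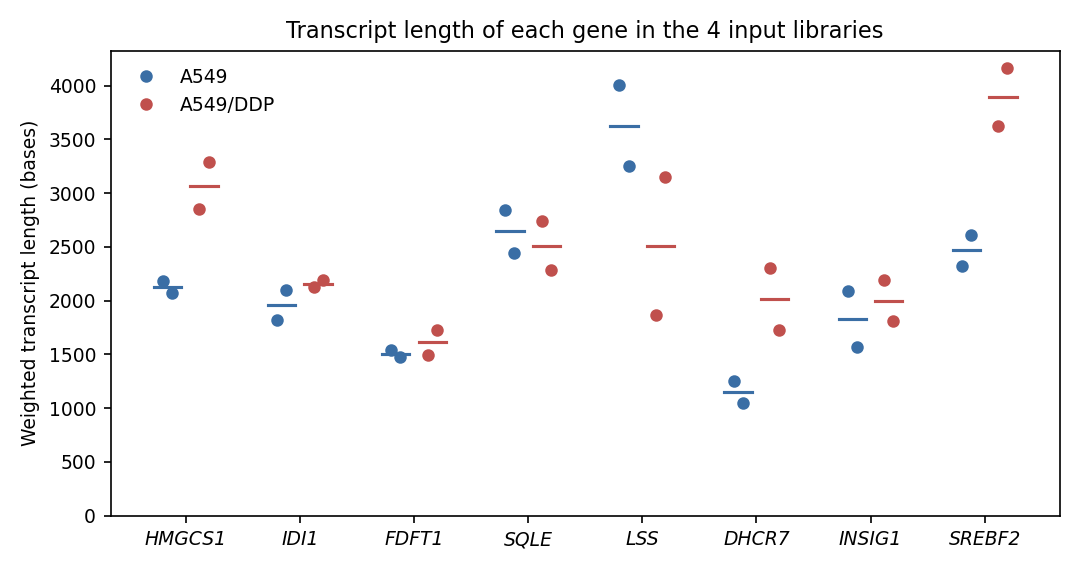
Weighted transcript length (bases, axis from 0) of each gene in the A549 inputs (blue) and the A549/DDP inputs (red); points are libraries and bars are means. HMGCS1, DHCR7 and SREBF2 are longer in both A549/DDP libraries, at ratios of 1.44, 1.75 and 1.58.

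Since TPM divides by this length, the lengths set how far the per-length and the count-based differences of these genes lay apart. For SREBF2 mean TPM went from 69.4 ± 9.27 to 47.5 ± 12.6 (SD, n = 2 each), a log2 ratio of −0.55, where the count-based log2 fold change was 0.12. For DHCR7 mean TPM went from 59.3 ± 32.3 to 109.3 ± 32.9 (SD, n = 2 each), a log2 ratio of 0.88 against 1.79 in counts. For HMGCS1 mean TPM went from 143.0 ± 1.75 to 59.6 ± 0.38 (SD, n = 2 each), a log2 ratio of −1.26 against −0.72. LSS, shorter in A549/DDP, had a log2 ratio of mean TPM of 1.66 against 1.07 in counts. The sign for SREBF2 thus differed between the scales, and the other 7 genes kept theirs. SREBF2 passed on neither scale (adjusted p = 0.771 by edgeR and 0.288 by limma on log2(TPM + 1)). On counts its log2 fold change was also negative without A549 replicate 1 (−0.02) and without A549/DDP replicate 1 (−0.09).

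The second question was where m6A was called on the transcripts of these genes in each line. The deposited lists hold called peaks per library with a p-value and no fold or read depth, so a missing peak shows only that none was called. Peaks of the 8 genes were found for 3 genes in A549 replicate 1, for 2 in A549 replicate 2 and for 5 in each A549/DDP library. Among all genes tested, 43.7%, 30.6%, 40.7% and 22.2% had a peak in these libraries, and among genes with at least 10 CPM 57.6%, 43.0%, 59.1% and 32.5%. No exact test of 2 libraries against 2 could pass, and peak counts are described without one.

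INSIG1 and SREBF2 had peaks in both A549/DDP libraries and in neither A549 library, a pattern held by 1.97% of all genes tested and by 2.9% of those with at least 10 CPM. In INSIG1 the peak called in both was at chr7:155308336-155308835 on the + strand, 10458 to 10957 bases from the gene start. A549/DDP replicate 1 had it as 1 peak of 500 bases with a deposited p-value of 0.0023. A549/DDP replicate 2 had 2 peaks there and 3 more in the gene, all listed with a p-value of 2.7e-08. INSIG1 was also 3.64-fold lower by CPM in the A549 inputs, and the part of its level in the missing calls was not tested.

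In SREBF2 a region from chr22:41833228-41868776 on the + strand, of exon blocks between 123 and 35671 bases from the gene start, and a region at chr22:41905866-41906065, 72761 to 72960 bases from the start, were called in both A549/DDP libraries. A549/DDP replicate 1 listed 2 peaks in the gene, over 898 bases, and A549/DDP replicate 2 listed 5, over 702 bases. Its level by CPM was alike in the lines, at 105.5 ± 13.1 in A549 and 114.4 ± 19.8 in A549/DDP (SD, n = 2 each). By TPM the lines did not overlap, at 62.9 and 76.0 in A549 and 56.4 and 38.6 in A549/DDP. Its weighted transcript length was 1.58 times longer in A549/DDP, and the part of this in the calls was not tested. The deposited p-values of these peaks ran from 0.00032 to 0.013, the highest among the peaks of the 8 genes.

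DHCR7 and SQLE had peaks in all 4 libraries, which held for 13.9% of all genes tested and 21.0% of those with at least 10 CPM. In DHCR7 the regions called in all 4 were chr11:71434497-71435883 and chr11:71442283-71447818 on the − strand, 13160 to 14546 and 1225 to 6760 bases from the gene start. DHCR7 had 4, 4, 5 and 4 peaks in A549 replicates 1 and 2 and A549/DDP replicates 1 and 2, so its number of peaks was alike in both lines. In SQLE the region called in all 4 lay 487 to 1483 bases from the gene start, and 4 further regions were called in A549/DDP replicate 1 only.

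FDFT1 had 4 peaks in A549 replicate 1, against 3 peaks in the second A549/DDP library, and none in the other library of either line. The 3 regions called in both of these libraries lay between 7215 and 43380 bases from the gene start. HMGCS1 had 5 peaks, all in A549/DDP replicate 1, with p-values between 7.9e-07 and 7.8e-06 as deposited. No peak of HMGCS1 was called in A549, where its level was the higher, at 187 ± 28.1 CPM against 114 ± 11.9 CPM (SD, n = 2 each). For FDFT1 and HMGCS1 the calls thus split the 2 libraries of a line. IDI1 and LSS had no peak in any library, as had 43.0% of all genes tested and 24.3% of those with at least 10 CPM.

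Over the 8 genes the peaks formed 26 merged regions. Of these, 3 were called in all 4 libraries, 3 in both A549/DDP libraries only, and 0 in both A549 libraries only. Among all 37903 merged regions 8.72% were called in all 4, 3.09% in both A549/DDP libraries only and 6.12% in both A549 libraries only. Of the remaining regions of the 8 genes, 15 were called in 1 A549/DDP library only and 2 in 1 A549 library only, and the 3 shared regions of FDFT1 in 1 library of each line. Among all regions 30.3% were called in 1 A549/DDP library only, 27.0% in 1 A549 library only, and 24.8% in libraries of both lines but not in all 4. With only peaks at p-values of 1e-05 or below, INSIG1 kept peaks in A549/DDP replicate 2 alone and SREBF2 kept none, so that neither held its pattern of both A549/DDP libraries. SQLE then kept peaks in A549/DDP replicate 1 alone and DHCR7 in 3 of the 4 libraries.

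**Figure D4:**
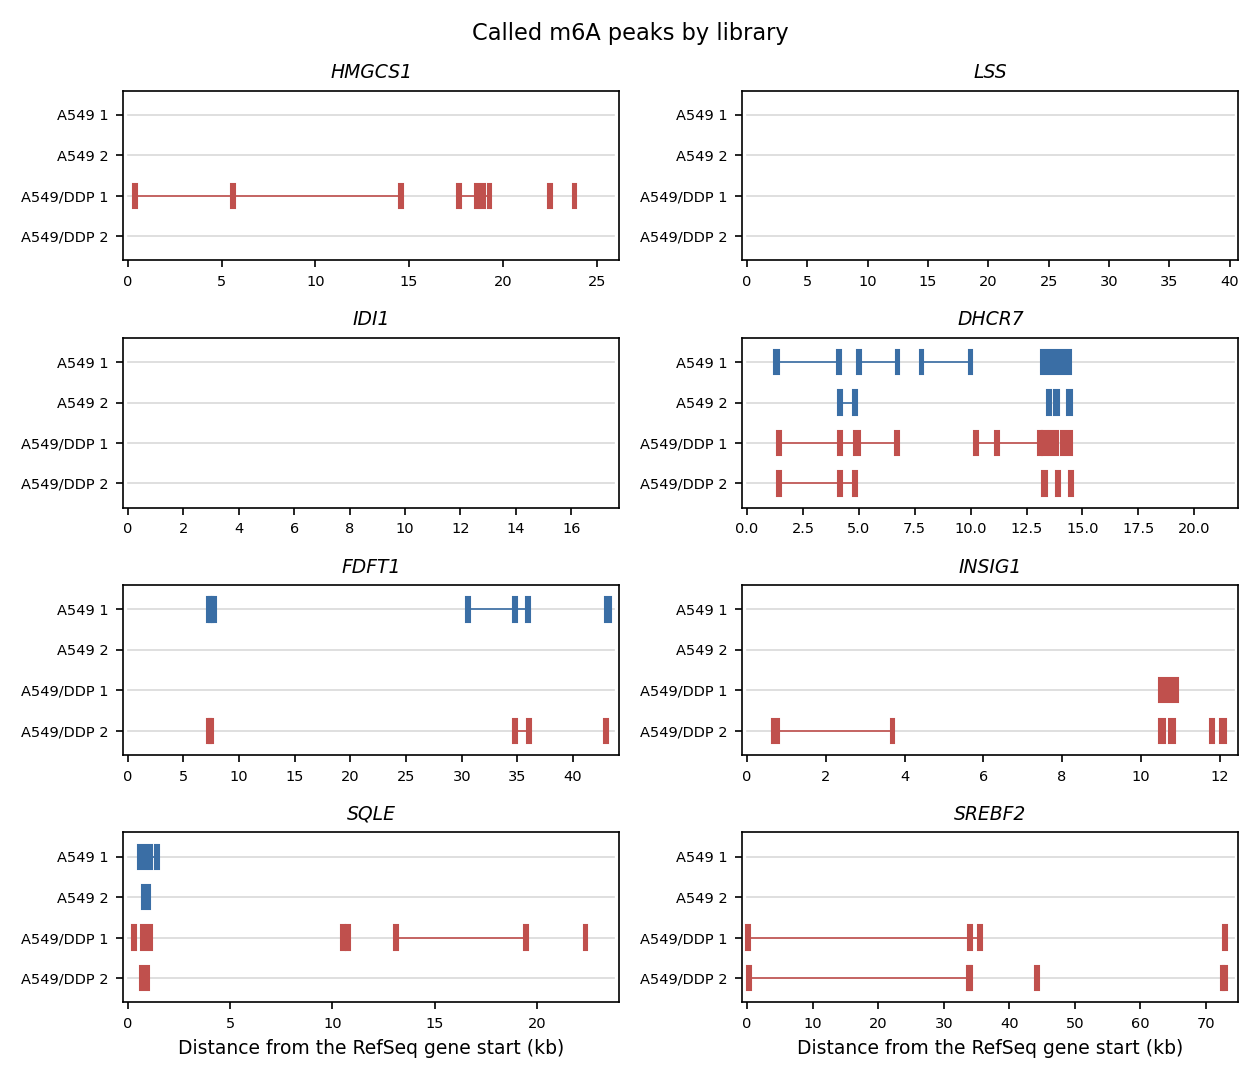
Called m6A peaks of the 8 genes by library, against the distance from the RefSeq gene start (kb); boxes are exon blocks of peaks, lines join the blocks of 1 peak, and short blocks are drawn at a minimum width so that they can be seen. Peaks of INSIG1 and SREBF2 are in the A549/DDP rows (red) only, those of DHCR7 in all 4 rows, and the panels of IDI1 and LSS are empty.

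The other genes of sterol metabolism were taken from 6 lists of 70 genes, of which 69 were tested. Among the 15 other synthesis enzymes 3 were called higher and 0 lower, with a median log2 fold change of 0.72, where the median was 1.19 over the 8 genes described here and −0.002 over all genes tested. Among them, EBP, a sterol isomerase, and LBR, a sterol reductase that is also a receptor of the nuclear lamina, rose by log2 fold changes of 1.17 and 0.82 (adjusted p = 0.0415 and 0.0461 by edgeR). FDPS, which makes farnesyl diphosphate and had the highest mean TPM of the list, differed by 0.56 ± 0.18 (SE) with an adjusted p of 0.0939 by edgeR. Taken with the 8 genes, 7 of 23 synthesis and control genes were called higher and 0 lower, where 6.85% of all genes tested were called higher and 8.0% lower. A positive log2 fold change was found for 20 of the 23 and for 8192 of all 16406 genes tested. Since the lists were chosen with earlier results of these data known, these counts are a description only.

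Of 12 genes that control SREBPs, 0 were called higher and 1 lower, MBTPS2, the protease of the second cut of SREBPs, at −0.94 ± 0.23 (SE, adjusted p = 0.0461 by edgeR). SREBF1, the gene of SREBP1 and the highest of this list by TPM, differed by −0.18 ± 0.28 (SE, adjusted p = 0.739 by edgeR). INSIG2, the paralog of INSIG1, was at 7.54 and 11.3 CPM in A549 and 6.51 and 7.51 CPM in A549/DDP (adjusted p = 0.679 by edgeR), and the difference between the 2 paralogs was not tested.

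Of 13 genes of sterol uptake and intracellular transport 3 were called higher and 2 lower, with a median log2 fold change of 0.24. SCARB1, the HDL receptor, rose from 107.5 and 120.8 CPM in A549 to 335.1 and 323.9 CPM in A549/DDP, by 1.53 on the log2 scale (adjusted p = 0.00488 by edgeR). VLDLR, a receptor for triglyceride-rich lipoproteins, and NPC1, which moves cholesterol out of lysosomes, fell by 1.24 and 1.26 on the log2 scale. Where the second A549 pair was used they were at 0.33 and 0.26 (adjusted p = 0.627 and 0.681 by edgeR). Both lay below the median of 0.80 over all genes in that fit and rested on 4 to 11 counts a library in that pair. Whether the uptake and transport genes differ from the synthesis genes in direction was not tested.

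Of 9 genes of sterol storage, export and LXR control 8 were tested and 2 called higher, among them NR1H2, the gene of LXR-beta, at a log2 fold change of 1.04. Of 11 genes of fatty acid synthesis that SREBPs are known to drive, 4 were called higher and 0 lower, with a median of 1.04. These were the desaturases FADS1, FADS2 and SCD, at log2 fold changes of 1.26, 1.96 and 1.04, and the synthase FASN, at 1.32, while ACLY, the highest of the list by TPM, was at 0.42 (adjusted p = 0.156 by edgeR). Of 10 users of the isoprenoid branch 2 were called higher, FNTB, a subunit of protein farnesyltransferase, at 2.30 and DHDDS, a subunit of the enzyme that makes the dolichol precursor, at 1.60, while FNTA, the highest of the list, was at −0.78 (adjusted p = 0.184 by edgeR). By peaks, CYP51A1 and MSMO1, both sterol demethylation enzymes, had calls in both A549/DDP libraries and in neither A549 library, as INSIG1 and SREBF2 did. They were chosen after their values were seen, and were 2 of the 15 genes of their list. Over all 6 lists 3 of 70 genes held this pattern, beside 1.97% of all genes tested, and in 4 of the lists 0 did.

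**Figure D5:**
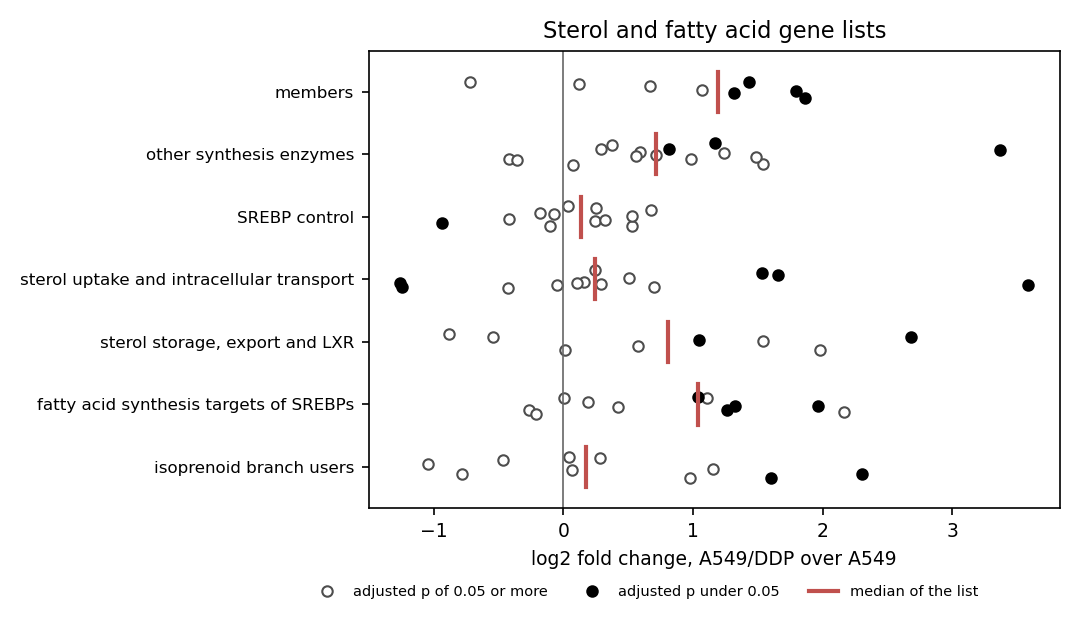
log2 fold change, A549/DDP over A549, of each tested gene of the 8 genes described here (top row) and of the 6 other lists; filled points have an adjusted p under 0.05 and red bars are medians. The median is 1.19 in the top row and 1.04 for fatty acid synthesis, and 0.14 for the control of SREBPs.

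The genes outside these lists whose pattern over the 4 inputs was nearest to the median pattern of the 8 genes were MKNK2, CROCCP3, SURF1, IGFBP2 and SLC31A1, at distances of 0.0505 to 0.0895 between centred log2 CPM values. SLC31A1, a copper importer, was at 44.9 and 47.2 CPM in A549 and at 101.0 and 97.3 CPM in A549/DDP. MKNK2, a kinase, was at 40.7 and 46.9 CPM in A549 and at 101.7 and 97.3 CPM in A549/DDP. The likeness was measured over 4 libraries only, and a pattern of 2 levels is shared by many genes.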

How the data were processed

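The authors deposited 1 RSEM gene table for each input library. Its deposited expected counts are raw estimates, and its deposited TPM and FPKM values correct for transcript length and depth. Each m6A-seq library came as a deposited peak list, with exon blocks and a p-value as score, not said to be raw or adjusted. The submitters' processing notes name hg38, STAR, RSEM and bedtools, without versions. The peak caller is not given in the sources used here. Groups came from the labels, which call the A549/DDP inputs A549 by cell line and DDP resistant by cell type. For the A549 m6A-seq libraries the replicate numbers of the labels are exchanged relative to the deposited names, and the labels were followed.

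Rounded expected counts that passed filterByExpr were tested over all genes with edgeR 4.0.16 (TMM, glmQLFTest, Benjamini-Hochberg) in R 4.3.3, with 2 libraries a line, no block and a threshold of 0.05. SE is the log2 fold change over the square root of F. The common biological coefficient of variation was 0.656. Alternatives were DESeq2 1.42.0, limma 3.58.1 with trend on log2 TPM (pseudocount of 1 or 0.1) or log2 FPKM (pseudocount of 1) for genes with a mean of at least 1, other filters and scaling, the replicate number as a block, the second A549 pair, and leaving out each library. The code was tested on simulated data of smaller spread than these libraries, which does not show its power or error here. The library pairs differed by more than sampling noise (chi-square per degree of freedom of 83.1 and 53.5). Peaks of different libraries were merged on any overlap of exon blocks (at least 1 base, same strand). Exon, intron or UTR location and m6A motifs in peaks were not analysed here. Plots were drawn with matplotlib 3.10.9.

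The genes described and the lists were chosen with earlier results of these data known. Beside the 8 genes, names were given to called genes of each list, up to 5 by smallest p, to the gene of the highest mean TPM, and to the 5 genes nearest in pattern. INSIG2, CYP51A1 and MSMO1 were named after their values were seen. Some list genes are counted and not reported here by name.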

Additional observations from a re-analysis of the deposited data

How the results depend on the processing

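Of the 8 genes 4 were called, and parentheses give the genes called of all genes tested in the same setting (2437 of 16406). The count was 4 with upper-quartile scaling (2535 of 16406) and 6 with DESeq2 (4329 of 17047). With at least 10 counts in every library it was 6 (3614 of 12840). With the second A549 pair it was 4 (3758 of 13815), but of other genes. There INSIG1 and IDI1 were lost, and HMGCS1, lower, and SREBF2, higher at 1.78, were gained. The count was 2 with limma on log2(TPM + 1) (1492 of 15398) and 1 on log2(TPM + 0.1) (1177 of 15398). It was 7 without a filter (4010 of 22792) and 0 with both A549 pairs (677 of 16517). Genes called higher, 4 at first (1124 of all genes), numbered 1 with limma on log2(TPM + 1) (665) and 0 on log2(TPM + 0.1) (510). They numbered 2 on log2(FPKM + 1) (827) and 0 with both pairs (335). Genes called lower, 0 at first (1313 of all genes), numbered 1, HMGCS1, with DESeq2, all 3 limma fits, both other filters and the second pair. In those settings 667 to 2270 of all genes were called lower. Over all genes 2437 were called, and 1177 to 4329 under the other tests, scalings, filters and the block, and 677 with both A549 pairs.

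The replicate numbers did not pair the inputs (correlation of same-numbered deviations 0.021 over 2 pairs). With the replicate number as a block 5 of the 8 genes were called, HMGCS1 added as lower (1 gene), and 3536 of all genes.

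The log2 fold change of SREBF2 turned to −0.56, −0.57 and −0.49 in the 3 limma fits, −0.02 without A549 replicate 1 and −0.09 without A549/DDP replicate 1, and ranged from −0.09 to 0.28 without 1 library. With the second A549 pair FDPS turned to −0.47, SREBF1 to 0.10, VLDLR to 0.33 and NPC1 to 0.26. With both pairs FDPS was at −0.10. SREBF1 was at 0.10 without A549 replicate 2 and at 0.10 without A549/DDP replicate 2, and ranged from −0.55 to 0.10 without 1 library. The cause was not tested. Of 29 genes followed, members and lists, 16 lost their call with both pairs, 6 with the second pair, 10, 13 and 7 in the limma fits on log2(TPM + 1), log2(TPM + 0.1) and log2(FPKM + 1), and 9 without A549/DDP replicate 1. Without A549/DDP replicates 1 and 2 the median of all genes shifted to −0.20 and −0.11. With the second pair it shifted to 0.80, above the 0.66 of SQLE and the 0.59 of IDI1 there. The values of FDPS, SREBF1, VLDLR and NPC1 in that fit also lay below this median.

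Regions of the 8 genes called in both libraries of each line numbered 3, and 0 at p-values of 1e-05 or below, 6 where 1 library of a line sufficed, and 3 to 4 without 1 library. A line with a library left out was counted by the 1 library left, which does not test calls in both. Those in both A549 libraries numbered 3, then 0 and 8. Without A549 replicate 1 or 2, 4 or 8 regions were called in the A549 library left. Those in both A549/DDP libraries numbered 6, then 3 and 24, and 8 or 6 without A549 replicate 1 or 2. Without either A549/DDP library 16 were called in the one left. The 3 at p-values of 1e-05 or below all lay within the DHCR7 region at chr11:71434497-71435883. That region split once the wide peak of A549 replicate 1 was left out. The depth of the m6A-seq libraries is unknown, which limits any statement on missing peaks.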
